A study of Oryctolagus cuniculus with 6 samples.

Results

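Oxidative phosphorylation is carried out by 5 protein complexes of the inner mitochondrial membrane, and most of their subunits are encoded in the nucleus. The nuclear subunit genes described here were chosen by symbol alone: rows named NDUFA, NDUFB, NDUFC, NDUFS or NDUFV with a number, SDHA to SDHD, UQCR, COX4 to COX8, or ATP5, with a position outside the mitochondrial genome. The rule gave 52 of the 29587 rows of the deposited gene table. By the start of the symbol, 24 were counted in complex I, 3 in complex II and 5 in complex III. Another 8 were counted in complex IV and 12 in ATP synthase (complex V). This placed NDUFA4L2 in complex I and ATP5S and ATP5SL in ATP synthase by name only. Reads were present for 49 of the 52 rows, and all 49 passed the filter on low counts. The rows of NDUFA1, NDUFA5 and UQCRFS1 had 0 counts in all 6 libraries. For these rows that allows up to 3 counts, or 0.208 to 0.286 CPM (counts scaled to library size), in a library. They span only 213, 806 and 1393 bases, and whether they hold the expressed copy of each gene was not tested.

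Complexes I and II pass electrons from NADH and succinate to ubiquinone, complex III passes them on to cytochrome c, and complex IV hands them to oxygen. Complexes I, III and IV pump protons while doing so, and ATP synthase uses the returning protons to make ATP. A few central subunits of complexes I, III, IV and V are encoded by the mitochondrial genome, so each of these complexes combines the products of both genomes, while complex II is entirely nuclear. In the airway this system feeds the beating of cilia, ion transport and repair.

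PolyA RNA-seq was done on the mucosa of the trachea of 3 months old rabbits of the New Zealand breed. In the high cuff pressure group a 3.0 mm tube was placed in the trachea to 13 cm and its cuff was kept at 35 cmH2O for 2 h, and in the control group the labels state no tube, cuff or time of sampling. Each group has 3 libraries, named H1 to H3 for high cuff pressure replicates 1 to 3 and C1 to C3 for control replicates 1 to 3; nothing in the labels names the animals, so each p-value reflects the variation among libraries, which may be technical. The question is how mucosal transcripts differ after pressure injury.

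Libraries held 10501734 to 14415754 counts. The material is labelled as epithelial cells, and 3 epithelial markers with a row summed to 850 to 1361 CPM, but 5 smooth muscle markers summed to 417 to 8015 CPM and 7 fibroblast markers to 267 to 2067 CPM, so the libraries are of mixed tissue. The neutrophil markers summed to 6812, 3615 and 1483 CPM in H1, H2 and H3 against 6.95 to 422 CPM in controls, with MMP8 at 0 counts in all libraries. H1 also stood apart in smooth muscle markers, at 417 CPM against 3553 to 8015 CPM elsewhere. In such mixed samples fewer cells of a type and less RNA per cell cannot be told apart.

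Of the nuclear subunit genes 1, ATP5G1, which encodes the c subunit of ATP synthase, rose with high cuff pressure, and 0 of the 49 tested fell. Of the 49 log2 fold changes, 42 were positive with TMM factors (trimmed mean of M-values), 27 with total counts and 23 on an FPKM scale. With TMM factors they ran from -1.43 to 1.28 with a median of 0.42, against a median of -0.01 over the 13724 genes tested. With total counts the median over all genes was -0.40 and that of the subunits 0.03, so the subunits stood 0.43 above all genes on either scale. The genes tested included 503 that rose (3.67%) and 222 that fell (1.62%) by edgeR's quasi-likelihood test at an adjusted p under 0.05. With total counts these were 389 and 1241.

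The share of subunits with separated groups was near that of all genes for higher values and below it for lower values. The groups did not overlap for 10 subunits that were higher, or 20.4% of the 49, beside 18.6% of all genes tested. The 2 subunits with all high cuff pressure libraries below all controls made up 4.08%, beside 18.7% of all genes. At an unadjusted p under 0.05, 9 subunits were higher (18.4%, beside 15.6% of all genes) and 0 lower (beside 13.6%). DESeq2 called 4 subunits higher, or 8.16%, beside 9.66% of the 14653 genes it tested, and 0 lower, beside 8.16%. With limma-voom 1 was higher, beside 3.78% of all genes, and 0 lower, beside 2.19%. These shares are near or below those of all genes.

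**Figure D1:**
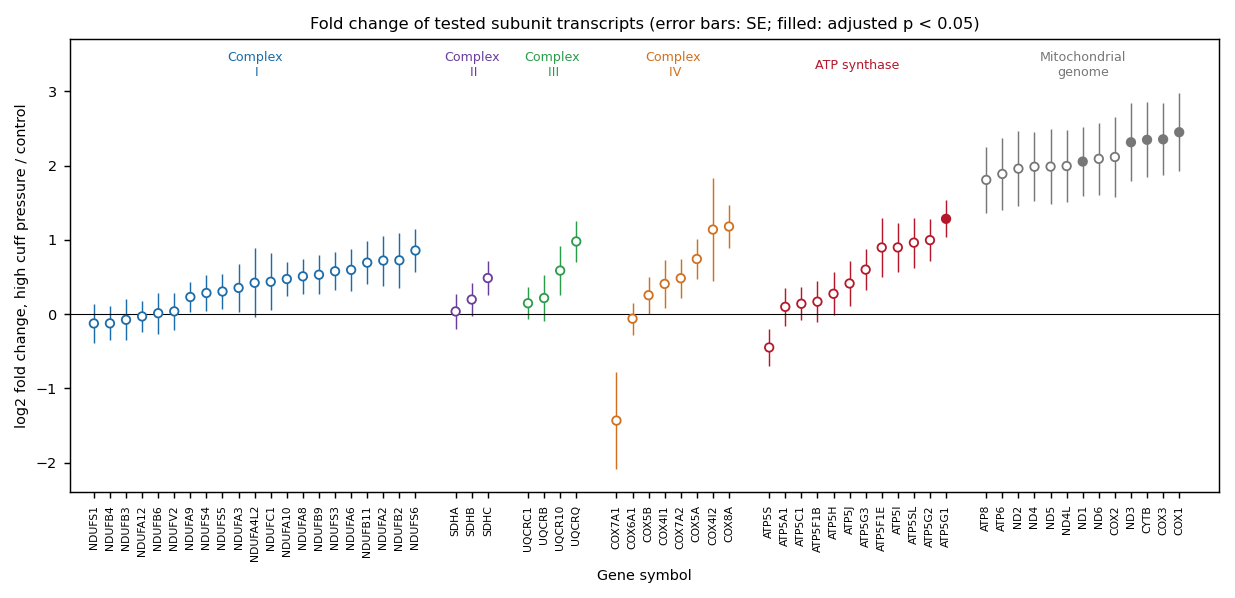
Log2 fold change (high cuff pressure against control, edgeR with TMM factors) of the tested nuclear subunits by complex, all but 1 of complex I, with the 13 protein genes of the mitochondrial genome at the right; each point is a gene, vertical lines are the SE, and filled points have an adjusted p under 0.05. Most nuclear values lie between 0 and 1, ATP5G1 is the one filled nuclear point, COX7A1 lies lowest, and the mitochondrial genes lie from 1.81 to 2.45; with total counts 27 of the 49 nuclear values are positive.

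The plot of fold change by complex shows values of either sign in complexes I, IV and V. Complex I, the NADH dehydrogenase, had a median of 0.43 over 22 tested genes, with 18 positive values. It had 0 genes past the adjusted threshold in either direction by edgeR or DESeq2. At an unadjusted p under 0.05, 2 were higher (9.09%, beside 15.6% of all genes) and 0 lower. The 17 tested accessory subunits had a median of 0.44.

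NDUFS1, the large iron-sulphur protein at the electron entry, had 81.4, 72.0 and 128 CPM in H1, H2 and H3 and 91.7, 115 and 101 CPM in C1, C2 and C3. H2 was the lowest and H3 the highest of the 6 libraries, so the control values lay inside the range of the injured ones (log2 fold change -0.13 ± 0.26 SE, edgeR adjusted p = 0.78).

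The largest complex I value belonged to NDUFS6, a zinc-binding subunit near the electron entry. It had 56.6, 95.9 and 49.8 CPM in H1 to H3 and 40.9, 39.1 and 31.6 CPM in C1 to C3. The groups did not overlap, H2 stood well above the other libraries, and the difference did not pass (0.86 ± 0.29 SE, edgeR adjusted p = 0.11). NDUFB2, a small subunit of the membrane arm, came next with 44.9, 102 and 42.7 CPM against 45.8, 34.9 and 33.8 CPM. Here H2 alone was high, and H1 and H3 lay below C1 (0.72 ± 0.37 SE, edgeR adjusted p = 0.23). Without H2 its log2 fold change was 0.20.

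At the other end of complex I, NDUFB4, also of the membrane arm, had 33.4, 46.8 and 39.6 CPM in H1 to H3 and 50.1, 39.6 and 41.0 CPM in C1 to C3. The ranges overlapped in part, with H1 below every control and C1 above every injured library (-0.12 ± 0.23 SE, edgeR adjusted p = 0.75). NDUFA4L2, a relative of NDUFA4 known as a hypoxia-inducible gene, was barely expressed, with 9, 13 and 29 counts in H1 to H3 and 15, 17 and 15 counts in C1 to C3. H1 was the lowest and H3 the highest library (0.42 ± 0.46 SE, edgeR adjusted p = 0.57). NDUFA4 and NDUFV1 were not analysed here.

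Complex II, succinate dehydrogenase, links the citric acid cycle to the respiratory chain and had the lowest median, 0.20 over 3 genes. None of the 3 passed by edgeR or DESeq2, and 0 had an unadjusted p under 0.05. SDHA, the flavoprotein that oxidises succinate, had 188, 241 and 297 CPM in H1 to H3 and 235, 241 and 230.3 CPM in C1 to C3. The control values fell inside the spread of the injured ones (0.04 ± 0.24 SE, edgeR adjusted p = 0.94). SDHB, the iron-sulphur subunit, ranged from 102 to 144 CPM in the injured libraries and from 95.1 to 120.2 CPM in controls (0.20 ± 0.22 SE, edgeR adjusted p = 0.57). SDHC, a membrane anchor, had 111, 175 and 158 CPM against 116, 99.9 and 101 CPM. Its H1 value lay below C1, while H2 and H3 lay above all controls (0.49 ± 0.23 SE, edgeR adjusted p = 0.21).

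Complex III had a median of 0.40 over 4 genes, 0 of which passed with edgeR. At an unadjusted p under 0.05, 1 was higher (25%, beside 15.6% of all genes). It also passed with DESeq2, which called 9.66% of all genes higher. That gene was UQCRQ, a small subunit of the membrane part. It had 201, 322 and 186 CPM in H1 to H3 and 140.3, 105 and 114 CPM in C1 to C3. All injured libraries exceeded all controls (236 ± 74.5 against 119.8 ± 18.3 CPM, SD, n = 3), with a log2 fold change of 0.98 ± 0.28 SE and edgeR adjusted p = 0.073; DESeq2 gave an adjusted p = 0.019. Without H1 the edgeR adjusted p was 0.043.

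The remaining complex III genes overlapped between groups. UQCRC1, a core protein of the complex, had 311, 368 and 356 CPM against 296, 303 and 335 CPM, with H1 inside the control range (0.15 ± 0.21 SE, edgeR adjusted p = 0.68). UQCRB, which binds near the ubiquinone site, ranged from 31.8 to 51.7 CPM in the injured libraries and from 23.9 to 46.3 CPM in controls (0.22 ± 0.31 SE, edgeR adjusted p = 0.67). UQCR10, a small accessory subunit, had 4.83, 7.65 and 6.14 CPM against 4.87, 3.80 and 3.72 CPM, so that H1 and C1 were nearly equal (0.59 ± 0.34 SE, edgeR adjusted p = 0.28). Its row spans a single uninterrupted stretch, as do those of NDUFA3, COX7A2 and ATP5I. Whether these rows collect reads of a related copy of the gene was not tested, and their levels are uncertain.

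Complex IV, cytochrome c oxidase, spread more widely than the others, from -1.43 to 1.18 over 8 genes with a median of 0.45. By edgeR 0 passed, and 2 had an unadjusted p under 0.05, both higher (25%, beside 15.6% of all genes). DESeq2 called 1 higher, beside 9.66% of all genes, and that was COX8A. This gene encodes the smallest widely expressed subunit. It had 114, 224 and 123 CPM in H1 to H3 and 74.0, 68.9 and 60.4 CPM in C1 to C3. The injured libraries all lay above the controls (154 ± 60.8 against 67.8 ± 6.86 CPM, SD, n = 3), and the difference just missed the threshold (1.18 ± 0.30 SE, edgeR adjusted p = 0.058; DESeq2 adjusted p = 0.0072). The authors' deposited table gives it a q-value of 0.029. It passed without H1 (edgeR adjusted p = 0.026) and stood at 0.81 without H2.

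COX5A, a matrix-side subunit, had 107, 179 and 132 CPM in H1 to H3 and 101, 67.2 and 81.6 CPM in C1 to C3. H1 was only slightly above C1, although the groups did not overlap (0.74 ± 0.27 SE, edgeR adjusted p = 0.12). COX6A1, the widely expressed form of subunit VIa, had 184, 229 and 254 CPM against 234, 217 and 245 CPM. It was thus near its control level on average, with H1 the lowest library (-0.06 ± 0.22 SE, edgeR adjusted p = 0.88).

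Complex IV has isoform pairs, which allow a common and a restricted form to be set side by side. COX7A1, the form typical of striated muscle, had 13, 64 and 21 counts in H1 to H3 and 110, 148 and 120 counts in C1 to C3, or 1.28, 7.53 and 1.59 against 9.40, 9.52 and 8.75 CPM. H1 and H3 were far below every control and H2 came close to them. With that spread the difference did not pass (-1.43 ± 0.65 SE, edgeR adjusted p = 0.19), and it was -2.66 without H2 (edgeR adjusted p = 0.063), -1.04 without H1 and -1.07 without H3. On the log2(FPKM + 1) scale (FPKM, fragments scaled by gene length and library total) limma gave -2.12 with an adjusted p = 0.033. On that scale the median over all genes was -0.36, and 1745 of the 13177 genes tested were lower. Without the filter limma gave COX7A1 an adjusted p = 0.071. Its common partner COX7A2 had 25.3, 36.7 and 25.5 CPM against 24.1, 16.9 and 21.6 CPM, with all injured libraries above all controls (0.48 ± 0.27 SE, edgeR adjusted p = 0.26).

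As a sum, markers of skeletal muscle overlapped between the groups. The 11 markers with a row summed to 14.9, 21.1 and 41.6 CPM in H1 to H3 and 28.8, 74.6 and 38.2 CPM in C1 to C3, with MYH1 and MYH4 at 0 counts in the injured group. The sum adds markers that differed in direction, so it is given as a description only. Of the 4 markers that passed the filter, the log2 fold changes were -3.38 for NEB and -2.24 for CKM, both without overlap, -0.19 for PYGM and 1.02 for ACTA1, and 0 passed the adjusted threshold (1 had an unadjusted p under 0.05 and DESeq2 called 1). The part of muscle cells in the COX7A1 values was not tested.

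COX4I2, the form of subunit IV known from lung and from hypoxia, had 5, 37 and 53 counts in H1 to H3 and 15, 23 and 17 counts in C1 to C3. H1 was the lowest of the 6 libraries and H2 and H3 the highest, so the group mean hides opposite positions (1.14 ± 0.70 SE, edgeR adjusted p = 0.31). Without H1 it passed (1.64, edgeR adjusted p = 0.033), and without H2 and without H3 it was 0.78 and 0.84. The common form COX4I1 had 330.0, 680 and 422 CPM against 422, 344 and 312 CPM, with H1 inside and H2 far above the control range (0.41 ± 0.32 SE, edgeR adjusted p = 0.42). No partner of COX8A was analysed here, nor were COX6A2 and COX6C.

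ATP synthase had the highest median of the complexes, 0.51 over 12 genes. With edgeR 1 passed as higher, beside 3.67% of all genes. At an unadjusted p under 0.05, 4 were higher (33.3%, beside 15.6% of all genes) and 0 lower. By part of the enzyme, the 4 genes of the F1 part (alpha, beta, gamma and epsilon subunits) had a median of 0.15. The 3 genes of the membrane c ring had 1.00, and the 3 other subunit genes, ATP5H, ATP5I and ATP5J, had 0.41. These are medians of a few genes each and were not tested against each other.

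The c ring turns as protons pass, and 3 genes, ATP5G1, ATP5G2 and ATP5G3, encode the same mature c subunit behind different import signals. ATP5G1 (ENSOCUG00000016225, chromosome 19, 38526418 to 38528887, minus strand, in the coordinates of the deposited table, whose build no source used here names) had 88.0, 153 and 111 CPM in H1 to H3 and 50.3, 46.4 and 47.8 CPM in C1 to C3. Its lowest injured library lay well above its highest control. It rose from 48.2 ± 2.00 to 117 ± 33.2 CPM (SD, n = 3), with a log2 fold change of 1.28 ± 0.25 SE (edgeR adjusted p = 0.034). The authors' deposited table gives it a q-value of 0.0092, and there q-values under 0.05 are held by 2 of the 49 subunits, ATP5G1 and COX8A.

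The call for ATP5G1 held without H1 and was lost without any other library. The edgeR adjusted p was 0.013 without H1, and it was 0.088 without H2, 0.058 without H3, 0.087 without C1, 0.14 without C2 and 0.15 without C3, with log2 fold changes of 1.05 to 1.46. Without C2 and without C3 the whole fit called 0 genes, and without H2 it called 3 higher and 1 lower.

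ATP5G2 had 147, 283 and 239 CPM in H1 to H3 and 126, 105 and 105 CPM in C1 to C3. Again the groups did not overlap, with H1 nearest to the controls (1.00 ± 0.28 SE, edgeR adjusted p = 0.071; DESeq2 adjusted p = 0.017). ATP5G3 had 81.5, 130.4 and 162 CPM against 88.1, 75.7 and 83.2 CPM, and here H1 lay inside the control range (0.60 ± 0.27 SE, edgeR adjusted p = 0.19). Both passed without H1 (edgeR adjusted p = 0.017 and 0.037). The coding parts of these genes are alike, and since the counting options are not given, reads shared between them or with other copies make the split uncertain.

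Of the F1 part, the alpha, beta and gamma subunit genes were on average close to their control levels. ATP5F1B, the beta subunit that holds the catalytic sites, had 643, 714 and 992 CPM in H1 to H3 and 729, 701 and 662 CPM in C1 to C3. H3 was high and H1 was below every control (0.17 ± 0.27 SE, edgeR adjusted p = 0.71). ATP5A1, the alpha subunit, had 424, 526 and 650.3 CPM against 494, 471 and 530 CPM, with the same order among the injured libraries (0.10 ± 0.26 SE, edgeR adjusted p = 0.83). ATP5C1, the gamma subunit of the central stalk, had 0.14. The small epsilon subunit gene ATP5F1E had a larger value of 0.90 ± 0.40 SE (edgeR adjusted p = 0.18), which came from H2, at 412 CPM against 115 to 171 CPM in the other 5 libraries.

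The symbol rule also took in ATP5SL and ATP5S, now named DMAC2 and DMAC2L, which are not structural subunits. ATP5SL had 21.2, 37.1 and 19.6 CPM in H1 to H3 and 16.2, 13.8 and 9.91 CPM in C1 to C3, without overlap (0.96 ± 0.34 SE, edgeR adjusted p = 0.11). ATP5S, with 10.3, 12.8 and 10.6 CPM against 16.6, 13.6 and 15.7 CPM, had all injured libraries below all controls (-0.45 ± 0.25 SE, edgeR adjusted p = 0.27). With these and NDUFA4L2 left out, the median over 46 genes stayed 0.42.

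**Figure D2:**
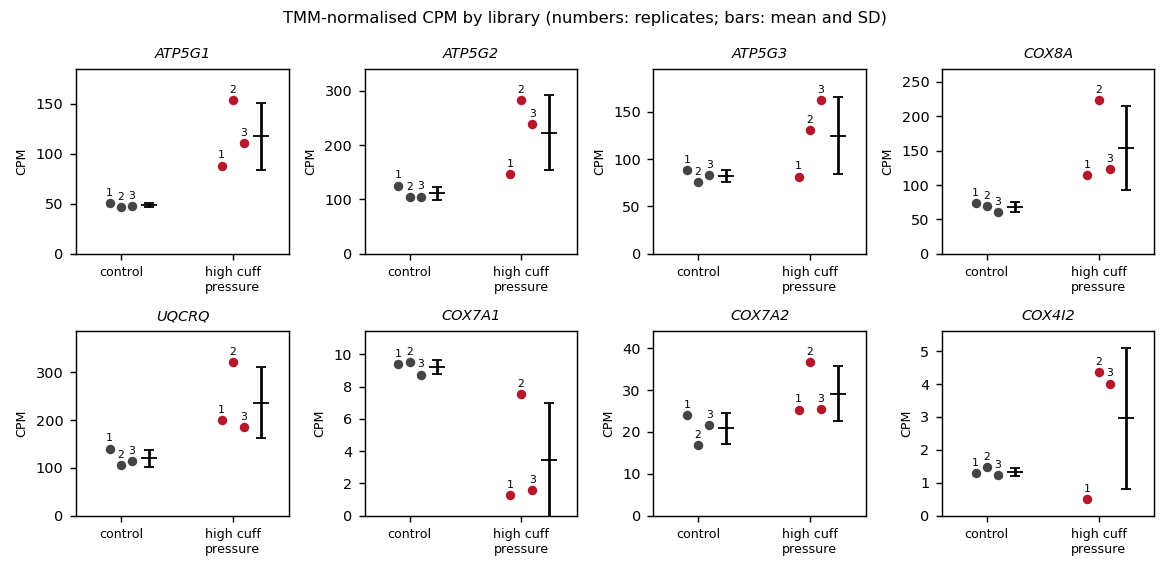
Normalised expression in CPM (TMM factors) of 8 subunit genes in each group; points are libraries with their replicate number, and the bars give the mean and SD of 3 libraries (the lower SD bar of COX7A1 reaches below 0 and is not drawn past the axis). ATP5G1, ATP5G2, COX8A and UQCRQ have no overlap between groups and H2 highest, ATP5G3 and COX4I2 have H1 inside or below the control range, and COX7A1 has H2 near the control level.

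Expression levels differed far more between subunits than between groups. Per kilobase of gene model, control levels were highest for COX6A1 at 434 ± 26.2 CPM per kilobase (SD, n = 3), ATP5F1B at 395 ± 19.1, COX4I1 at 345 ± 54.2, ATP5F1E at 336 ± 60.8 and ATP5A1 at 270.01 ± 15.9. Each neighbouring pair in this order lay within the sum of its SDs, so the order within such a pair is not resolved. COX6A1 and ATP5A1, at the ends of this order, lay further apart than their SDs. The lowest levels were those of NDUFA4L2 at 1.53 ± 0.144 and COX4I2 at 2.58 ± 0.249 CPM per kilobase. The muscle form COX7A1 had 35.3 ± 1.60 CPM per kilobase in controls and its partner COX7A2 82.8 ± 14.6. In the injured group these were 13.3 ± 13.5 and 116 ± 25.9.

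The subunits moved together from library to library. As a median over the 49 genes, log2 CPM lay 0.73 above the control mean in H2, 0.33 above it in H3 and at -0.0007 in H1, with controls at 0.16, -0.11 and -0.05 in C1, C2 and C3. H1 thus lay inside the control range, and H2 and H3 lay above it. H2 was the highest injured library for 41 of the 49 subunits, where it was so for 33.8% of all genes, and H1 was the lowest for 39. C1 was the highest control for 39. For the H1 and C1 counts the share of all genes is not given here, so they are descriptions only. The order H2, H3, H1 held for complex I (0.71, 0.28 and 0.08), complex II (0.40, 0.33 and -0.10), complex III (0.74, 0.39 and 0.11), complex IV (0.88, 0.36 and -0.12) and ATP synthase (0.82, 0.45 and -0.03).

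**Figure D3:**
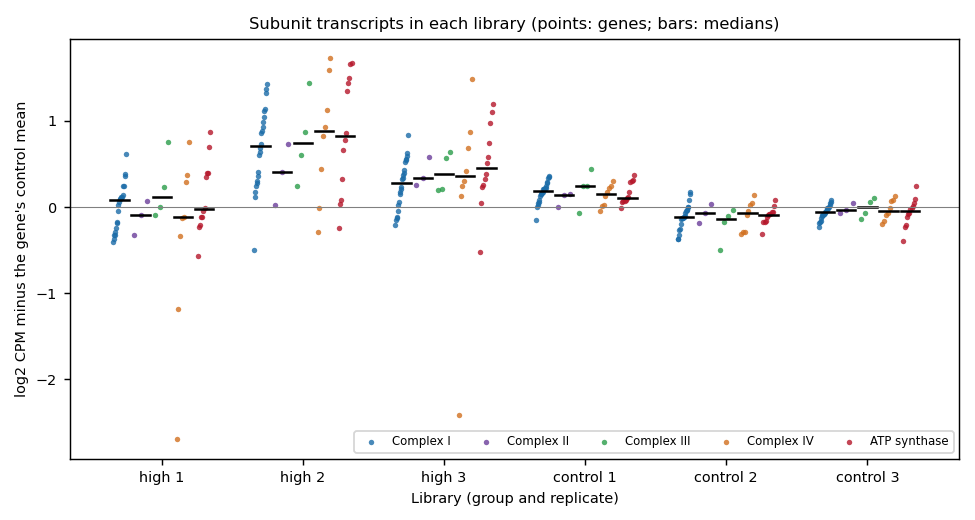
Log2 CPM minus the control mean of the same gene in each of the 6 libraries, 1 point for each of the 49 tested subunits, coloured by complex, with the median of each complex as a bar. The complex medians are 0.40 to 0.88 in H2 (high 2) and lie around 0 in H1 (high 1), from -0.12 to 0.11, while those of C1 (control 1) lie above the other controls.

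Leaving out single libraries therefore moved the median of the subunits. Measured against the median of all genes, it was 0.43 with all libraries, 0.57 without H1 and 0.21 without H2. Without H1, 7 subunits passed with edgeR, beside 9.68% of all genes higher in that fit: ATP5G1, ATP5G2, ATP5G3, ATP5I, COX4I2, COX8A and UQCRQ. In that fit 1362 of all genes were higher and 1261 lower. Without H2, 0 subunits passed.

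Gene length moved with these values. The tested subunits had a median model length of 671 bp against 2137 bp over all genes tested, and 45 of the 49 were below the latter. Among the shortest of 5 equal length classes (58 to 1076 bp, 2747 genes), the median log2 fold change over all genes was 0.22, 23.2% were higher without overlap and 4.48% passed the test. The 36 subunits in that class had a median of 0.46, and 8 of them, which included ATP5G1, were higher without overlap. In the longest class the median over all genes was -0.16.

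Short genes were high in the same library as the subunits. Measured from the mean of all libraries, the median of the shortest class was 0.32 in H2, 0.11 in H3 and -0.01 in H1. C2 was the lowest control at -0.20. The subunit deviations above were measured from the control mean instead, so the sizes cannot be set side by side. With a smooth length trend taken out of each library, the subunits lay 0.19 above the median of all genes instead of 0.43, and ATP5G1 kept its call (1.04, edgeR adjusted p = 0.033). Without both H2 and C2, the libraries that deviated most with length, the subunits lay 0.13 above and 0 genes passed. Among the subunits themselves, Spearman's rho between log2 fold change and model length was -0.26 over 49 genes, given as a description only, since genes of the same libraries are not independent. The part of length in the subunit values beyond these fits was not tested.

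**Figure D4:**
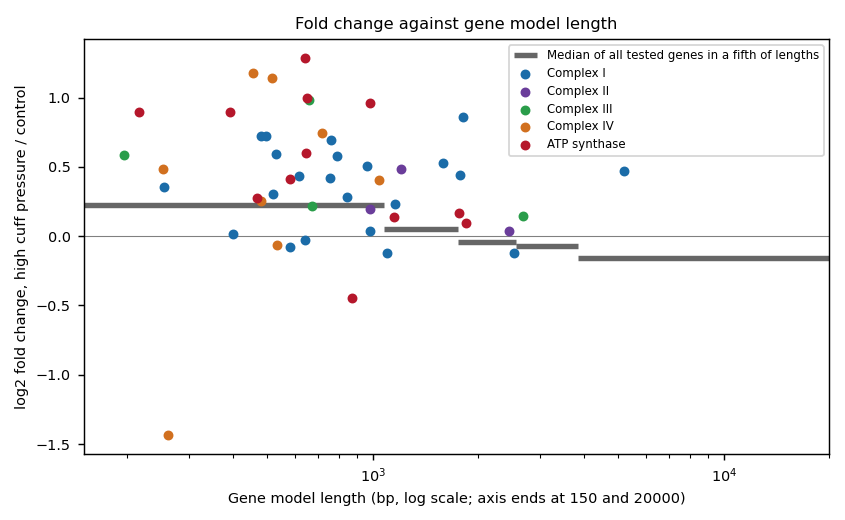
Log2 fold change (high cuff pressure against control, edgeR with TMM factors) against gene model length in bp on a log axis, with the 49 tested subunits as points coloured by complex and the medians of all genes tested in 5 length classes as grey bars. The grey medians go from 0.22 in the shortest class to -0.16 in the longest, and 36 of the 49 subunits fall in the shortest class.

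Ribosomal protein genes, likewise short and encoded in the nucleus, showed a similar order of libraries. The 55 mitochondrial ribosomal protein genes had a median log2 fold change of 0.49 and lay 0.11, 0.72 and 0.59 above the control mean in H1, H2 and H3. The 41 tested cytosolic ribosomal protein genes had a median of 0.59 and deviations of -0.04, 1.03 and 0.68. With edgeR 2 of the former passed, MRPL41 and MRPL58, both higher, and 0 of the latter, beside 3.67% of all genes higher. At an unadjusted p under 0.05, 21 of the mitochondrial list (38.2%) and 13 of the cytosolic list (31.7%) were higher. The same share was 15.6% of all genes and 18.4% of the subunits. DESeq2 called 15 of the 55 and 9 of the 41 higher, beside 9.66% of all genes. How the subunits differ from these lists was not tested.

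The mitochondrial genome's own subunits differed much more. All 13 of its protein genes were higher without overlap between groups, beside 18.6% of all genes, with log2 fold changes of 1.81 to 2.45. With edgeR 5 passed, beside 3.67% of all genes higher, namely ND1, ND3, CYTB, COX1 and COX3. DESeq2 and limma-voom called all 13 higher, beside 9.66% and 3.78% of all genes. Mitochondrial genome transcripts made up 30.5%, 27.8% and 28.1% of counts in H1, H2 and H3 and 11.5%, 5.28% and 7.38% in C1, C2 and C3 (exact permutation test, two-sided p = 0.10, the smallest that 3 against 3 can give). The ratio of mitochondrial protein counts to nuclear subunit counts was 68.4, 44.7 and 46.5 in the injured libraries and 20.4, 9.16 and 12.4 in controls. H1, the lowest of the injured libraries for nuclear subunits, had the highest ratio.

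As a share of counts outside the mitochondrial genome, the nuclear subunits made up 0.638%, 0.853% and 0.832% in H1, H2 and H3 and 0.622%, 0.598% and 0.632% in C1, C2 and C3. The injured libraries were all higher, H1 by little (exact permutation test, two-sided p = 0.10). Leaving mitochondrial counts out of the normalisation left the subunits 0.43 above all genes. In the authors' deposited table of pathways, oxidative phosphorylation holds 13 changed genes of 94, with a rich factor of 1.87, a p-value of 0.027 and a q-value of 0.24. All 13 are genes of the mitochondrial genome listed as up, and 0 are nuclear subunits. ATP5G1 and COX8A, with q-values under 0.05 in the authors' deposited table of genes, are thus not among them. The reason for this was not tested.

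Genes that build or feed the respiratory chain had 0 members past the adjusted threshold in each list. All-gene shares for the counts that follow are 15.6% higher and 13.6% lower at an unadjusted p under 0.05, and 9.66% and 8.16% with DESeq2. Of 44 tested assembly factors, with a median of 0.23, 9 were higher (20.5%) and 0 lower at an unadjusted p under 0.05, and DESeq2 called 3 higher. The 22 electron carriers and transporters had a median of 0.33, with 4 higher (18.2%) and 1 lower (4.55%) at an unadjusted p under 0.05 and 1 in each direction with DESeq2. The 21 genes of the citric acid cycle and pyruvate dehydrogenase had a median of 0.06, with 5 higher (23.8%) and 4 lower (19.0%), and DESeq2 called 1 higher and 3 lower. The 7 genes of uncoupling and antioxidant defence had a median of -0.23, with 1 higher (14.3%) and 2 lower (28.6%), and 0 with DESeq2.

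The 15 regulators of mitochondrial gene expression had a median of -0.01, with 1 higher (6.67%) and 3 lower (20%) at an unadjusted p under 0.05 and 1 and 2 with DESeq2. Of the 15 values 7 were positive and 8 negative. TFAM and PPARGC1A stood at the low end and MYC and PPRC1 at the high end, all named after their values were seen. PPRC1 had 57.2, 51.2 and 80.3 CPM in H1 to H3 and 36.3, 42.1 and 26.4 CPM in C1 to C3, without overlap (0.85 ± 0.27 SE, edgeR adjusted p = 0.094). MYC had 0.99 ± 0.49 SE with overlap (edgeR adjusted p = 0.22). TFAM, which packages the mitochondrial genome and takes part in starting its transcription, had 6.11, 4.94 and 7.35 CPM in H1 to H3. Its controls had 10.8, 12.1 and 12.1 CPM in C1 to C3, without overlap (-0.92 ± 0.29 SE, edgeR adjusted p = 0.089). PPARGC1A, a coactivator of nuclear genes for mitochondrial proteins, had 36.4, 15.9 and 10.5 CPM against 36.7, 65.2 and 59.5 CPM (-1.36 ± 0.47 SE, edgeR adjusted p = 0.11). H1 and C1 were almost equal, and H2 and H3 were low.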

How the data were processed

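PolyA RNA of tracheal mucosa was sequenced, per the labels' protocols, with a DNBSEQ-T7 instrument. HISAT2 2.0.4, StringTie 1.3.3b and an edgeR of unstated version appear in the submitters' processing notes, with no roles. Build, annotation, strand and read counting settings: not given in the sources used here. Raw read counts and FPKM values by the authors fill the deposited table of genes, and model lengths were derived from their ratio. The authors' deposited tables also give p-values and q-values of genes and, for each pathway, numbers of genes and a rich factor, a ratio of shares.

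The counts went into edgeR 4.0.16 under R 4.3.3 (filterByExpr, TMM, robust glmQLFit, glmQLFTest, Benjamini-Hochberg adjustment over 13724 genes, threshold 0.05). Standard errors were obtained by dividing log2 fold changes by the root of the F statistic, and CPM are TMM-normalised. Within-group library pairs differed beyond counting noise, with a chi-square of 56.1 to 137 per degree of freedom. The floor of 3 counts covers counting error only. Members and lists were chosen with earlier results of these data known. Named are members past the threshold, the 2 largest and 2 smallest log2 fold changes of each complex, core subunits (1 is not reported here) and isoform pairs; other genes were chosen after their values were seen. ATP5F1E, ATP5C1, ATP5G3 and ATP5SL belong to the latter.

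Alternatives were RLE factors, total counts, no mitochondrial counts, 2 other filters, no robust estimation, limma-voom (limma 3.58.1), DESeq2 1.42.0, the replicate number as a block, limma on log2(FPKM + 1) or log2(FPKM + 0.1), and each library left out. Removal of a length trend (lowess span 0.5) and omission of H2 and C2 were added after seeing the data. Of the 52 symbols, 42 are in the RefSeq gene table for mOryCun1.1, which was not used for positions; 16 rows lie on unplaced scaffolds.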

Additional observations from a re-analysis of the deposited data

How the results depend on the processing

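With total counts only, 1241 genes were lower, and the medians were 0.034 for complex I, -0.20 for II, 0.014 for III, 0.045 for IV and 0.11 for ATP synthase; 15 of 42 positive values turned negative, among the named genes ATP5A1 (-0.29), ATP5F1B (-0.22), SDHA (-0.36), SDHB (-0.20), UQCRB (-0.17) and UQCRC1 (-0.25), as well as ATP5C1 (-0.26). FPKM carries the same scaling. On log2(FPKM + 1), with and without the filter, medians were -0.031, -0.20, 0.011, 0.021 and 0.072 in the same order, and 19 turned negative, among the named genes ATP5A1 -0.31, ATP5F1B -0.25, COX4I1 -0.041, NDUFA4L2 -0.022, SDHA -0.38, SDHB -0.20, UQCRB -0.15 and UQCRC1 -0.25. With the filter 1745 of the 13177 genes tested were lower, and 2 of the 49 subunits, COX7A1 and ATP5S. Without it 114 genes were higher and 0 subunits. On log2(FPKM + 0.1), 1446 genes and 2 subunits were lower, medians were -0.053, -0.20, 0.013, 0.022 and 0.072, and the same genes had -0.32, -0.25, -0.041, -0.064, -0.38, -0.20, -0.15 and -0.25. DESeq2 called 1415 genes higher, 1196 lower and 4 subunits higher.

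The replicate block gave 198 genes higher, 46 lower and 0 subunits (ATP5G1 adjusted p = 0.098). Replicate numbers did not pair the libraries: same-numbered deviations correlated at -0.28, -0.20 and -0.23, and no library correlated best with its own number. Control replicate 3 carries the number 4 in its title.

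With 1 library left out, 0 to 1362 genes were higher, 0 to 1261 lower and 0 to 7 subunits higher. The range crossed 0 for 11 of 49 subunits, among the named genes -0.066 to 0.24 for ATP5A1, -0.036 to 0.30 for ATP5F1B, -0.14 to 0.19 for SDHA, -0.16 to 0.062 for COX6A1 and -0.42 to 0.039 for NDUFS1. With the length trend removed the medians were 0.21, 0.082, 0.14, 0.16 and 0.27 in the same order of complexes. Without H2 and C2 the median was 0.10 for complex IV and 0.14 over the 49 subunits. In that fit 0 genes were higher, 0 lower and 0 subunits higher, and NDUFS1 had 0.13, SDHB -0.0012 and UQCRB -0.20. Fits with fewer libraries have fewer residual degrees of freedom; the cause of the other shifts was not tested. Depth limits COX4I2 and NDUFA4L2, which had 150 and 98 counts over all libraries.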

Other observations

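Subunit genes that the symbol rule misses because they carry other names were looked at after the data were seen. C14orf2, a small membrane subunit of ATP synthase now named ATP5MJ, had 11.1, 22.4 and 16.4 CPM in H1, H2 and H3 and 5.47, 6.11 and 8.02 CPM in C1, C2 and C3. The groups did not overlap (log2 fold change 1.35 ± 0.34 SE, edgeR adjusted p = 0.060). NDUFAB1, the acyl carrier protein of complex I, had 0.49, and USMG5, another small ATP synthase subunit, had 0.21.

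Among genes of the citric acid cycle, MDH2 and DLD had opposite signs and were named after their values were seen. MDH2, mitochondrial malate dehydrogenase, had 190.2, 341 and 261 CPM in H1 to H3 and 142, 120.3 and 113 CPM in C1 to C3 (1.08 ± 0.27 SE, edgeR adjusted p = 0.057). DLD, the dihydrolipoamide dehydrogenase shared by pyruvate and oxoglutarate dehydrogenase, had 28.5, 22.6 and 24.5 CPM against 40.1, 42.5 and 48.6 CPM (-0.80 ± 0.22 SE, edgeR adjusted p = 0.068). Neither pair of groups overlapped, and neither gene passed.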
